A study of Mus musculus with 11 samples.

Results

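The genes examined here encode the enzymes that add acetyl groups to histones (writers), the enzymes that take them off (erasers), the corepressor scaffolds that hold the erasers, and proteins that bind acetylated or methylated histone tails (readers). They were chosen by symbol alone, as the numbered Hdac, Kat and Sirt genes, the numbered Brd genes up to Brd9, Ing1 to Ing5, Ncoa1 to Ncoa3, the numbered Ncor genes, Ep300, Crebbp, Hat1, Sin3a, Sin3b, Rcor1 and Taf1. These symbols matched 50 of the 14272 measured genes. They fall into 15 acetyltransferases, 4 class I, 4 class IIa, 2 class IIb and 1 class IV deacetylases, 7 sirtuins, 5 corepressor scaffolds, 3 bromodomain readers of the BET family, 4 other bromodomain readers and 5 ING readers.

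RNA was sequenced from 4 murine cell lines of a melanoma progression model. Melan-a is an immortal line of nonmalignant melanocytes, syngeneic to C57Bl/6 mice and epithelial in shape, and 2 libraries of it (replicates 2 and 3) were used. The lines 4C (pre-malignant, mesenchymal), 4C11- (melanoma that does not metastasize, mesenchymal) and 4C11+ (metastatic melanoma, epithelial) were derived from melan-a by repeated loss of anchorage, and 3 libraries of each were used. The medium of melan-a held PMA, a phorbol ester, at 200 nM, and that of the derived lines held none, so that line and PMA cannot be told apart. Each stage of the model is a single line and the replicates are cultures of it, so the p-values below measure the spread between cultures. A further melan-a culture, replicate 1, was not analysed here.

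Acetylation of lysines in histone tails weakens the contact of histones with DNA and creates docking sites for bromodomains, and it marks active promoters and enhancers. Acetyltransferases such as EP300, KAT2A and the MYST family (KAT5 to KAT8) place the mark on different lysines as parts of large complexes. Class I deacetylases work inside the SIN3, NuRD, CoREST and NCoR complexes, class IIa enzymes have little catalytic activity of their own and bind transcription factors such as MEF2, and sirtuins use NAD+ and so depend on the metabolic state of the cell. In melanocytes, the pigment cell factor MITF recruits EP300 and CREBBP, and deacetylase inhibitors have long been studied in melanoma cells.

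Values are log2 CPM (read counts scaled to the size of a library) as deposited, listed in the order of the replicate numbers. A gene was called when the limma test gave a Benjamini-Hochberg adjusted p under 0.05 over all 14272 genes. Errors of means are SDs, with n = 2 for melan-a and n = 3 for the other lines, and errors of differences are standard errors. Neighbouring levels among the lowest values of a library were taken to differ by 1 read. From these levels a depth of about 3500000 to 7420000 reads per library was estimated, as if values were scaled to library size alone. The values look further normalized between libraries, as described with the processing, so this depth is uncertain. Of the melanocyte markers, 7 of 7 were measured, and their summed level was 10.8 to 13.1 in melan-a and 13.4 to 13.7 in 4C11+ against 1.59 to 3.52 in 4C and 4C11-, so the defining markers of melanocytes were almost absent from both mesenchymal lines. Tyr was at 3 reads or fewer in all 6 libraries of 4C and 4C11- and also in replicate 2 of melan-a. Pmel was at 2.41 and 2.95 in melan-a and 11.7 to 12.2 in 4C11+, against -0.42 to 2.54 in 4C and 4C11-. The summed level thus does not stand for each marker in melan-a. Of the fibroblast markers, 2 of 4 were measured (Col1a1 and Pdgfra), and their sum was 10.7 to 11.1 in 4C and 4C11- and 2.94 to 6.42 in the other lines. Both lists thus moved with the comparison of mesenchymal-like and epithelial lines, and their part in its results was not tested. Of the remaining lists, 1 of 4 keratinocyte markers (Krt10, -2.58 to 1.48), 2 of 4 leukocyte markers (Cd68 and Csf1r, summed level 1.96 to 6.37) and 1 of 3 endothelial markers (Cdh5, 6.54 to 7.43 in 4C11- and -3.15 to 4.01 elsewhere) were measured. In such bulk samples, fewer cells of a type and less RNA per cell cannot be told apart.

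Libraries that stand apart came from 2 lines. In replicate 1 of 4C11-, values rose with the GC content of a gene by 0.97 log2 units per 10% of GC relative to the mean of all libraries. Its deviation from the other 4C11- libraries had a Pearson r with GC content of 0.675 over 9508 genes and of 0.507 over the 50 histone acetylation genes, points that share the same libraries. In this library Taf1 was 2.10 and Ncor1 2.02 lower than the mean of the other 4C11- replicates on the log2 scale, and Kat6a, Ing3, Ncoa2 and Hdac9 were lower by 1.35, 1.24, 1.14 and 1.12. The melan-a libraries also differed, with slopes of 0.13 and -0.44 per 10% of GC, and Hdac11, Hdac7, Hdac5 and Ep300 were 5.44, 2.07, 1.43 and 1.35 lower in replicate 3 than in replicate 2. With 2 melan-a libraries, which of them stands apart cannot be told. Replicate 3 had the steeper GC slope, and replicate 2 had more Cd68 (6.35 against 2.67) and less Tyrp1 (8.51 against 12.6). With the GC and length trend of each library removed, 70 of the 73 calls of these genes over the 6 comparisons were kept (all but 2 of Hdac10 and 1 of Kat2a). Counts without replicate 1 of 4C11- and replicate 3 of melan-a, which leave 1 melan-a library, stand beside the main counts below.

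**Figure D1:**
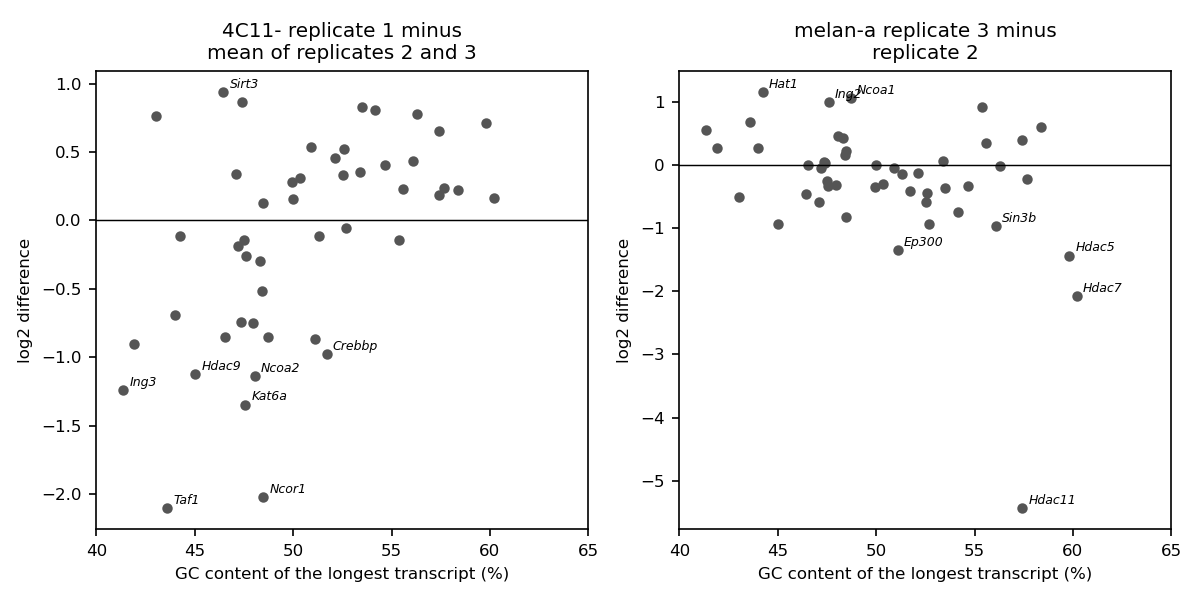
Log2 difference of 48 of the 50 genes in replicate 1 of 4C11- from the mean of replicates 2 and 3 (left) and between the melan-a libraries (right), against the GC content of the longest transcript in percent; each point is a gene, and the 8 largest deviations drawn in each panel are named. Low-GC genes such as Taf1 and Ing3 lie below 0 on the left, and Hdac11 lies at -5.44 on the right.

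The histone acetylation genes were expressed at a median of 5.97 log2 CPM, against 4.50 for all genes. Per kilobase of exon, the highest levels were those of Hdac1 (5.43 on the scale of log2 CPM per kilobase), Hat1 (5.40) and Brd2 (5.02), and the lowest those of Hdac9 (-4.12), Ing4 (-0.82) and Sirt5 (-0.45). Their levels differed moderately between lines. The range of the 4 line means had a median of 1.07 log2 units, against 1.18 over all genes. It was under 1 in 22 of the 50 genes (44%, against 41.1% of all genes). It exceeded 2 in 3 genes, which were Hdac9 (5.39), Hdac11 (4.43) and Hdac7 (2.73), and in 3478 of all 14272 genes. The ranges of Hdac9 and Hdac11 rest on libraries with 0 reads, those of 4C for Hdac9 and replicate 3 of melan-a for Hdac11. The smallest ranges were those of Ing2 (0.15) and Hdac6 (0.26). Of the 50 genes, 19 had their lowest line mean in 4C11+ (38%; 28.5% of all genes), 13 in 4C, 11 in melan-a and 7 in 4C11-.

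**Figure D2:**
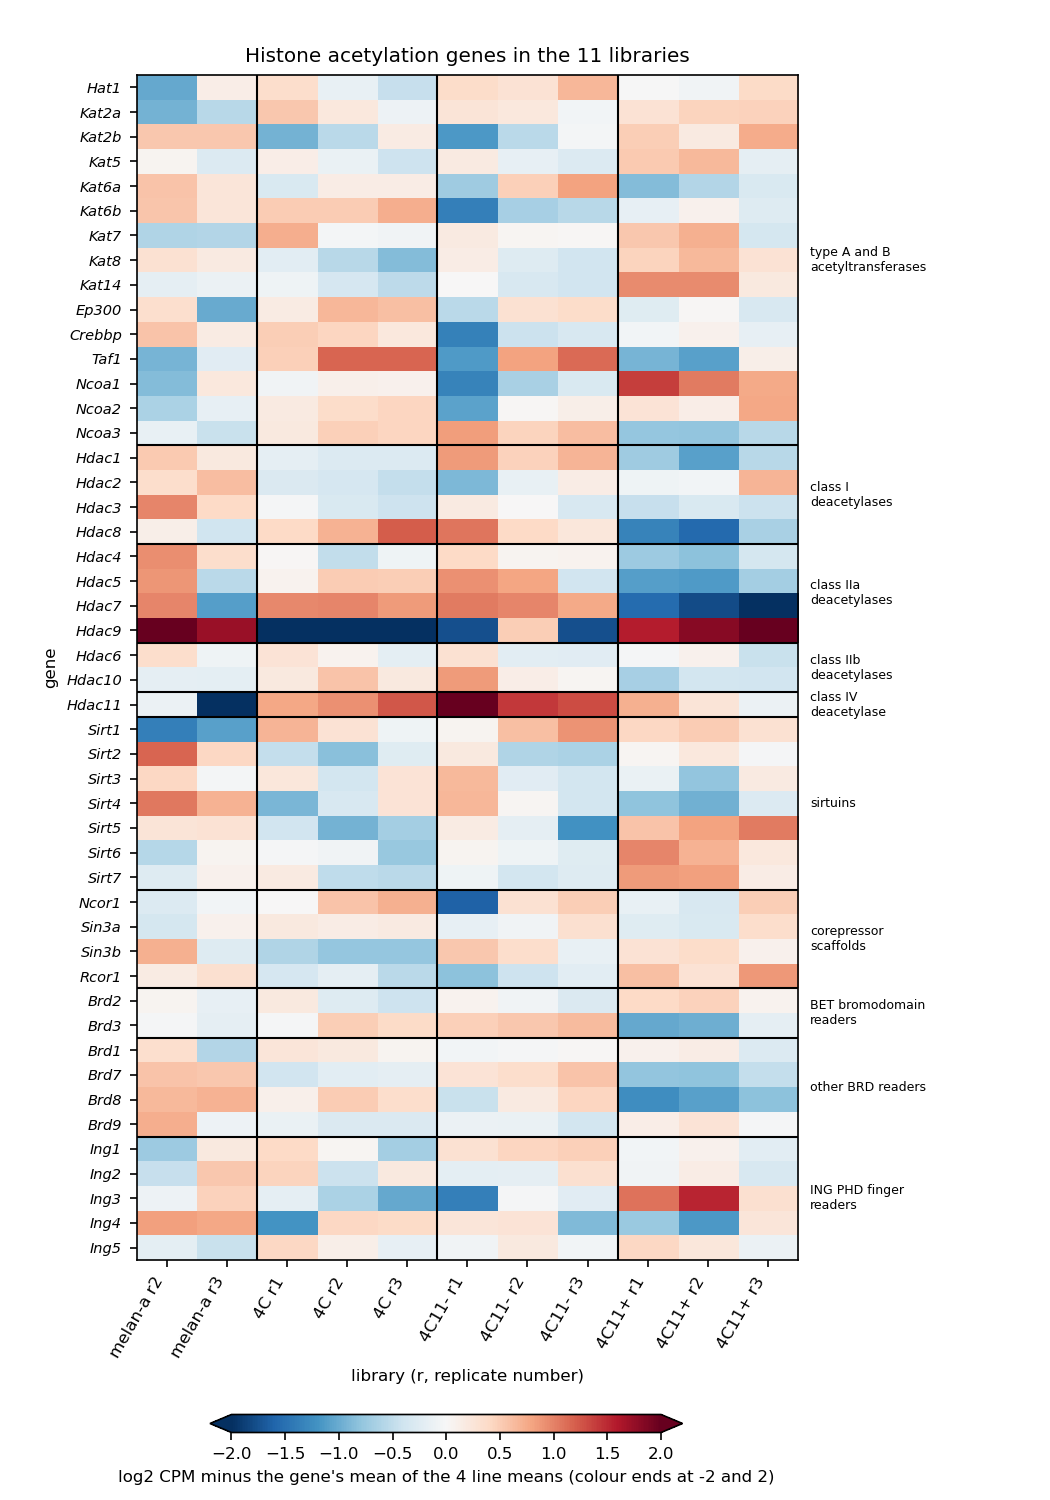
Value of 48 histone acetylation genes (rows, grouped by class) in each of the 11 libraries (columns, grouped by line), as log2 CPM minus the mean of the 4 line means; red is higher and blue lower, and the colour ends at -2 and 2. The row of Hdac9 is blue in 4C and mostly in 4C11-, and the rows of Hdac1, Hdac4, Hdac5, Hdac7 and Hdac8 are blue in 4C11+.

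Across the 6 comparisons, 30 of the 50 genes were called at least once, 17 in 3 or more, and 20 in none. No such count was made over all genes, so these numbers do not set the 50 genes apart. From melan-a to 4C, the step from melanocyte to pre-malignant cell, 3 genes were higher (Kat2a, Hdac11 and Sirt1) and 4 lower (Hdac3, Hdac9, Sirt2 and Brd7), where 7.64% of all genes were called higher and 7.55% lower. From 4C to 4C11-, the step to melanoma, none was higher and Kat6b alone was lower in the limma test. The background shares were 1.26% and 0.406%. An unadjusted limma p under 0.05 was found for 7 of the 50. That count was not made over all genes either, so it does not set the 50 apart. From 4C11- to 4C11+, the step to metastatic melanoma, 8 were higher and 10 lower (15.6% and 15.4% of all genes). Between the epithelial lines, 4C11+ against melan-a, 3 were higher and 7 lower (8.39% and 7.52%). These shares lie near those of all genes or rest on few calls.

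Both comparisons across all 4 lines gave about as many calls. Between the mesenchymal-like lines (mean of 4C and 4C11-) and the epithelial lines (mean of melan-a and 4C11+), 9 genes were higher and 9 lower, where 14.3% and 15.3% of all genes were. In the limma test of 4C11+ against the mean of the other 3 lines, 9 were higher and 10 lower (18.3% and 15.8%). The median difference of the 50 genes was 0.03 in the former comparison (-0.09 over all genes) and -0.03 in the latter (0.08 over all genes). Without replicate 1 of 4C11- and replicate 3 of melan-a, the 6 counts of called members were 11, 1, 22, 16, 18 and 25 in the order above, against 7, 1, 18, 10, 18 and 19 with them. The counts without these libraries rest on 1 melan-a library, and replicate 3 was chosen over replicate 2 after the data were seen. The comparisons share libraries, and their values are given side by side without being compared.

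Many of these calls were lost when 1 library was left out, and counts over all genes fell as well. In 4C11+ against the other lines, 4856 genes were called with all libraries and 3001 without replicate 1 of 4C11+. Whether a lost call reflects that library or the smaller fit was not tested. Leaving out replicate 2 of melan-a ended 5 of the 7 calls between 4C and melan-a (Kat2a, Hdac3, Sirt1, Sirt2 and Brd7, adjusted p 0.0551 to 0.194), and leaving out replicate 2 of 4C also ended 5 (Kat2a, Hdac3, Hdac11, Sirt2 and Brd7, 0.0659 to 0.0873). Without replicate 2 of melan-a, 8 of the 10 calls between 4C11+ and melan-a were lost (0.0524 to 0.247), and those of Brd7 and Brd8 were kept. Between 4C11+ and 4C11-, 8 of the 18 calls (Kat2b, Kat14, Hdac4, Hdac5, Hdac10, Sirt5, Sirt7 and Ing3) were lost without replicate 1 of 4C11+ (0.0606 to 0.158) and without replicate 2 of 4C11+ (0.0514 to 0.147), and 7 without replicate 2 of 4C11- (0.0558 to 0.125). In 4C11+ against the other 3 lines, 9 of the 19 calls were lost without replicate 1 of 4C11+ (0.0524 to 0.182) and 8 without replicate 2 (0.0566 to 0.155). Between mesenchymal-like and epithelial lines, 7 of the 18 were lost without replicate 2 of melan-a (0.0517 to 0.125), without replicate 3 of melan-a (0.0503 to 0.116) and without replicate 2 of 4C (0.0521 to 0.0962).

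**Figure D3:**
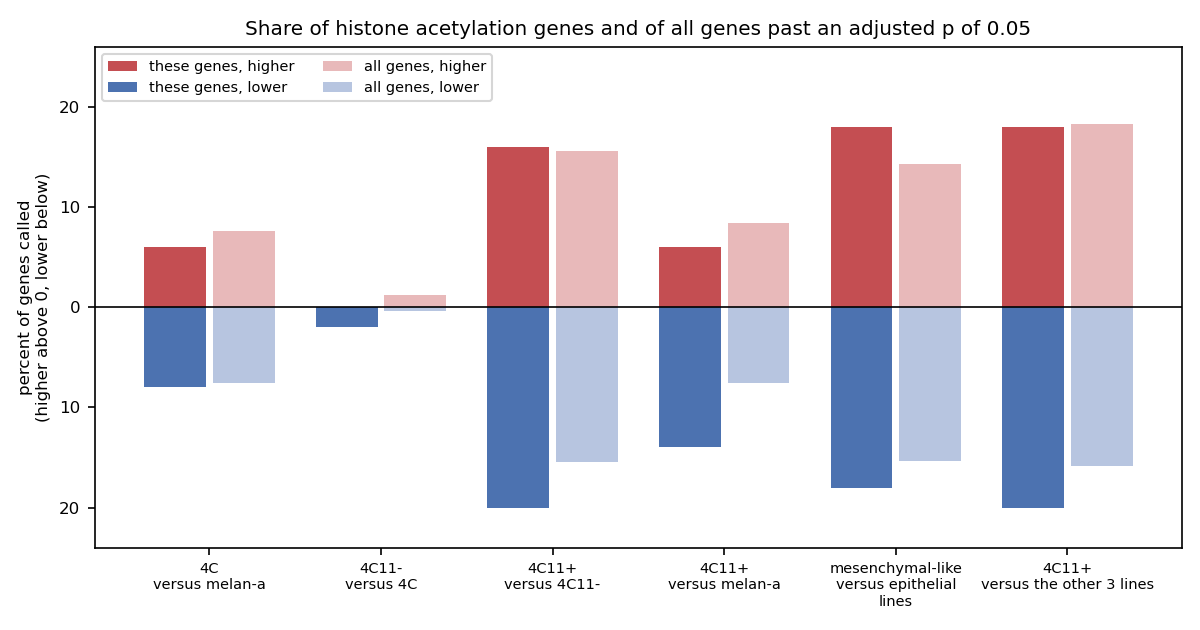
Percent of the 50 histone acetylation genes (dark bars) and of all 14272 genes (light bars) called higher (above 0) or lower (below 0) at a limma adjusted p under 0.05 in each of the 6 comparisons. The dark bars are mostly within a few percent of the light ones, and the lower bars of 4C11+ versus melan-a differ most, at 14% and 7.52%.

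Among the acetyltransferases, the calls were spread over few genes. In the comparison of 4C11+ with the other 3 lines, Kat2a, Kat14 and Ncoa1 were higher, Ncoa3 was lower and 11 of 15 were not called (median difference 0.40). The shares of all genes were 18.3% higher and 15.8% lower. Between mesenchymal-like and epithelial lines, Taf1 and Ncoa3 were higher, Kat2b, Kat8 and Kat14 were lower and 10 of 15 were not called (median 0.01). There the shares of all genes were 14.3% and 15.3%.

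Kat2a encodes GCN5, the catalytic subunit of the SAGA and ATAC coactivator complexes. It was measured at 5.60 and 6.0 for melan-a, 7.09, 6.76 and 6.45 for 4C, 6.82, 6.77 and 6.5 for 4C11-, and 6.84, 7.0 and 7.01 for 4C11+. Both melan-a libraries were below all 9 libraries of the derived lines. It was 1.95-fold higher in 4C than in melan-a (log2 fold change 0.97 ± 0.25, adjusted p = 0.0214) and 2.22-fold higher in 4C11+ than in melan-a (log2 fold change 1.15 ± 0.25, adjusted p = 0.0102). The former call was lost with the GC and length trends removed (0.78, adjusted p = 0.0709) and in a fit of those lines alone (adjusted p = 0.0887). Kat2b encodes its paralog PCAF, which takes the place of GCN5 in the same complexes. Its libraries held 6.47 and 6.48 for melan-a, 4.99, 5.39 and 6.10 for 4C, 4.79, 5.38 and 5.90 for 4C11-, and 6.43, 6.11 and 6.67 for 4C11+, and every mesenchymal library lay below every epithelial one, if narrowly. Kat2b was 2.02-fold lower across the mesenchymal-like lines (log2 fold change -1.01 ± 0.25, adjusted p = 0.0102), whereas Kat2a was not called in that comparison (log2 fold change 0.35 ± 0.17, adjusted p = 0.136).

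Kat14, another acetyltransferase of the ATAC complex, was at 6.10 and 6.17 for melan-a, 6.21, 5.96 and 5.77 for 4C, 6.29, 5.97 and 5.90 for 4C11-, and 7.23, 7.24 and 6.48 for 4C11+. Each of the 4C11+ libraries was above all others, though replicate 3 was close to replicate 1 of 4C11-. Kat14 was 1.9-fold higher in 4C11+ than in the other lines (log2 fold change 0.93 ± 0.21, adjusted p = 0.00532). Its lower value in the mesenchymal-like lines (log2 fold change -0.54 ± 0.19, adjusted p = 0.0484) overlapped between the groups.

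The steroid receptor coactivators recruit EP300 to nuclear receptors, and Ncoa1 and Ncoa3 differed in opposite directions. Ncoa1 was at 4.31 and 5.38 for melan-a, 5.10, 5.28 and 5.25 for 4C, 3.84, 4.53 and 4.86 for 4C11-, and 6.55, 6.22 and 5.93 for 4C11+, with the 4C11+ libraries above all others. It was 2.66-fold higher in 4C11+ than in the other 3 lines (log2 fold change 1.41 ± 0.28, adjusted p = 0.00271), 3.53-fold higher than in 4C11- (log2 fold change 1.82 ± 0.34, adjusted p = 0.00181) and 2.62-fold higher than in melan-a (log2 fold change 1.39 ± 0.38, adjusted p = 0.0292). Ncoa3, amplified in several human cancers, was at 6.5 and 6.20 for melan-a, 6.84, 7.13 and 7.07 for 4C, 7.49, 7.10 and 7.26 for 4C11-, and 5.88, 5.86 and 6.10 for 4C11+. Its 4C11+ libraries were below all others and its mesenchymal libraries above all epithelial ones. Ncoa3 was 1.91-fold lower in 4C11+ than in the other lines (log2 fold change -0.94 ± 0.17, adjusted p = 0.00128) and 2-fold higher in the mesenchymal-like lines (log2 fold change 1.0 ± 0.15, adjusted p = 0.000344). Ncoa2 was called in none of the comparisons, and its line means ranged from 5.31 to 6.10.

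The paralogs Ep300 and Crebbp, which acetylate histone H3 at enhancers, were called nowhere. Ep300 was at 6.70 and 5.36 for melan-a, 6.53, 7.03 and 6.97 for 4C, 5.84, 6.67 and 6.73 for 4C11-, and 6.13, 6.40 and 6.05 for 4C11+. The melan-a libraries lay 1.35 apart, and replicate 3 was the lowest library of the series. Neither 4C (log2 fold change 0.81 ± 0.39, adjusted p = 0.209) nor 4C11+ (log2 fold change 0.16 ± 0.39, adjusted p = 0.813) was called against melan-a. The latter difference was -0.51 without replicate 3 of melan-a and 0.84 without replicate 2. Line means of Crebbp ran from 5.75 in 4C11- to 6.83 in 4C, with replicate 1 of 4C11- lowest at 5.10.

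Hat1, a cytoplasmic enzyme that acetylates newly made histone H4 before its deposition, was at 5.91 and 7.07 for melan-a, 7.28, 6.78 and 6.47 for 4C, 7.29, 7.22 and 7.59 for 4C11-, and 6.93, 6.86 and 7.32 for 4C11+. Replicate 2 of melan-a was the lowest library and replicate 3 lay within the range of the other lines. None of the 6 differences passed, and that between 4C11+ and melan-a (log2 fold change 0.55 ± 0.35, adjusted p = 0.316) turned to -0.03 without replicate 2 of melan-a. Kat5, the catalytic subunit of NuA4/TIP60 and a regulator of the DNA damage response, was at 4.93 and 4.59 for melan-a, 5.01, 4.74 and 4.45 for 4C, 5.06, 4.71 and 4.60 for 4C11-, and 5.39, 5.52 and 4.69 for 4C11+. Of the 4C11+ libraries, 2 were the highest of all and replicate 3 fell among the others (log2 fold change 0.44 ± 0.24, adjusted p = 0.18 against the other lines).

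Kat8, the MYST enzyme that acetylates lysine 16 of histone H4, was at 4.45 and 4.33 for melan-a, 3.93, 3.58 and 3.28 for 4C, 4.29, 3.89 and 3.77 for 4C11-, and 4.59, 4.80 and 4.44 for 4C11+. All epithelial libraries were above all mesenchymal ones. It was 1.64-fold lower across the mesenchymal-like lines (log2 fold change -0.71 ± 0.21, adjusted p = 0.0224), and its difference in 4C11+ against the other lines did not pass (log2 fold change 0.62 ± 0.23, adjusted p = 0.0566). Kat6b, a MYST enzyme of the MOZ/MORF complex, was the gene called between 4C and 4C11-. Its libraries were at 4.64 and 4.33 for melan-a, 4.59, 4.59 and 4.81 for 4C, 2.72, 3.42 and 3.52 for 4C11-, and 3.92, 4.17 and 3.83 for 4C11+, and all 4C11- libraries were the lowest of the series. The fall from 4C to 4C11- was 2.71-fold (log2 fold change -1.44 ± 0.29, adjusted p = 0.0299), and the call was lost without any one of 7 libraries (each 4C library, replicates 1 and 2 of 4C11- and of 4C11+), with adjusted p up to 0.13. Its paralog Kat6a was not called in any comparison and had replicate 1 of 4C11- at 5.30 against 6.48 and 6.82 in the other replicates.

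Taf1, the largest subunit of the general transcription factor TFIID, with paired bromodomains, was at 5.99 and 6.68 for melan-a, 7.39, 8.08 and 8.07 for 4C, 5.79, 7.73 and 8.05 for 4C11-, and 5.99, 5.83 and 7.03 for 4C11+. All 4C libraries and replicates 2 and 3 of 4C11- were above every epithelial library, and replicate 1 of 4C11- was the lowest of the series. Taf1 was 2.31-fold higher in the mesenchymal-like lines (log2 fold change 1.21 ± 0.40, adjusted p = 0.0395) and not called in 4C11+ against the others (log2 fold change -0.84 ± 0.44, adjusted p = 0.165). Kat7, the MYST enzyme HBO1 that acetylates histone H3 lysine 14, had line means of 6.78 in melan-a and 7.45 to 7.67 elsewhere and was not called.

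Among the writers, the calls of Ncoa3, that of Kat2b between mesenchymal-like and epithelial lines and those of Kat14 and Ncoa1 in 4C11+ against the other lines held under every alternative run. Calls of Kat8, Kat14 and Taf1 between mesenchymal-like and epithelial lines were lost when single libraries were left out, among them replicate 2 of melan-a, replicate 2 of 4C and replicates 1 and 2 of 4C11+, with adjusted p up to 0.125. The call of Kat2a in 4C11+ against the other lines was lost without any one of 8 libraries, with adjusted p up to 0.155, and that of Ncoa1 against melan-a fell to 0.85 (adjusted p = 0.247) without replicate 2 of melan-a.

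The genes with the widest ranges of line means (Hdac9, Hdac11 and Hdac7) were all erasers. In 4C11+ against the other 3 lines, 3 of 4 class I enzymes (Hdac1, Hdac3 and Hdac8) and 3 of 4 class IIa enzymes (Hdac4, Hdac5 and Hdac7) were lower, Hdac9 was higher, and neither class IIb enzyme nor the class IV enzyme was called. The median difference was -0.79 in class I and -1.07 in class IIa. Of all genes, 15.8% were called lower and 18.3% higher in this comparison, and the classes hold few genes. Between mesenchymal-like and epithelial lines, Hdac7, Hdac8, Hdac10 and Hdac11 were higher and Hdac2 and Hdac9 lower (14.3% and 15.3% of all genes).

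**Figure D4:**
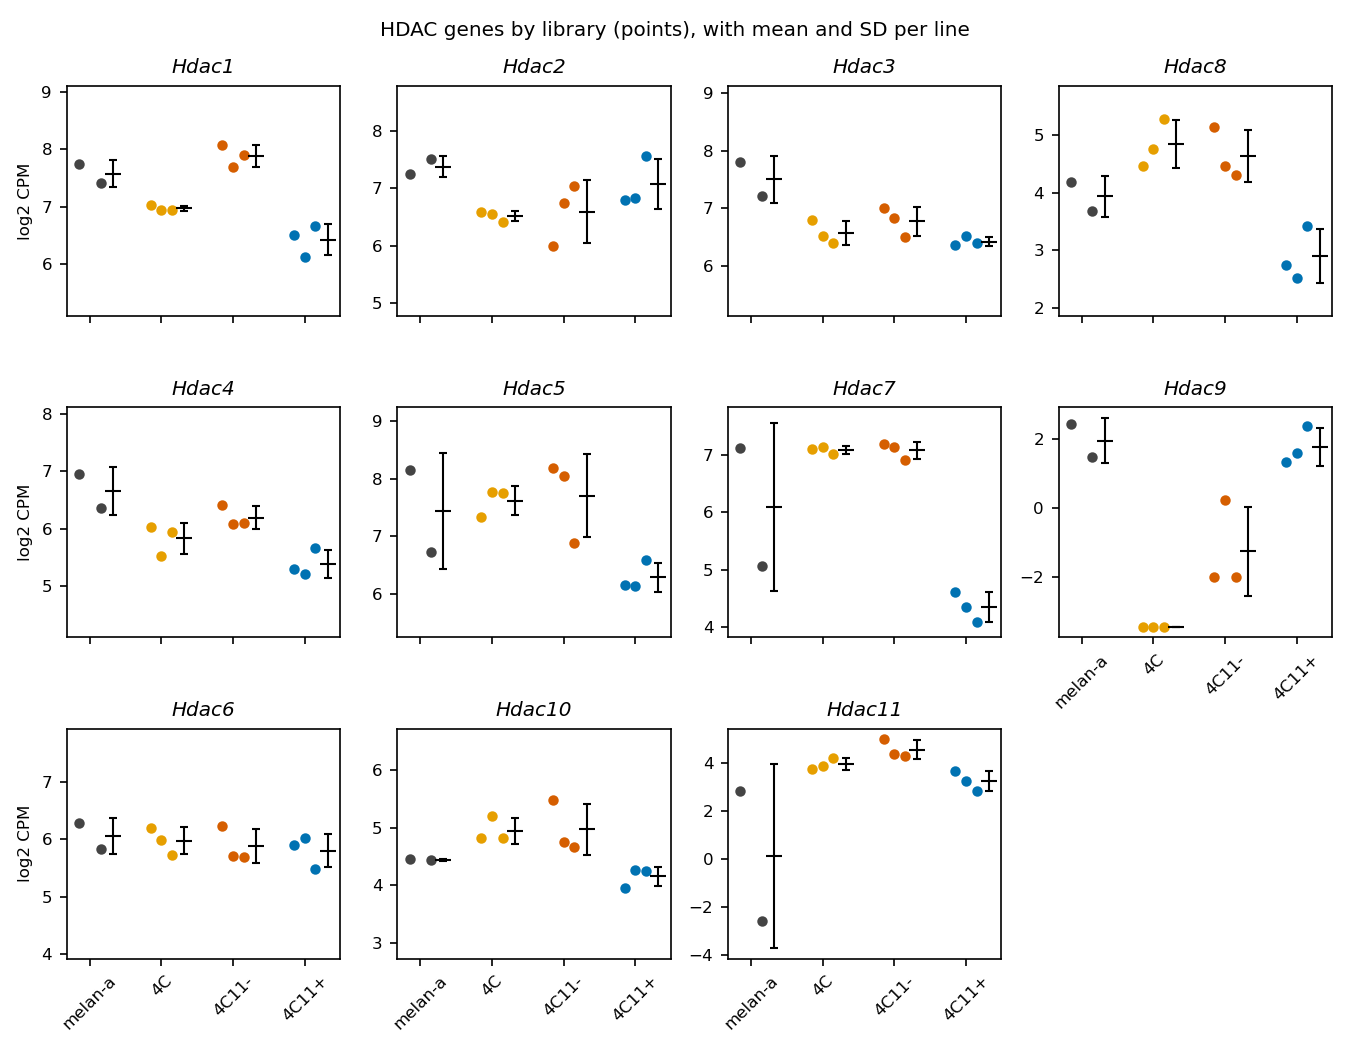
Log2 CPM of the 11 zinc-dependent deacetylase genes in each library (points, by line and in the order of replicate numbers), with the mean and SD of each line beside them; panels differ in the level and span of the vertical axis. The points of Hdac1, Hdac7 and Hdac8 in 4C11+ lie below those of all other lines, and Hdac9 lies at the bottom of the scale in 4C.

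Hdac1 encodes the main class I deacetylase of the SIN3, NuRD and CoREST complexes. It was measured at 7.74 and 7.40 for melan-a, 7.03, 6.95 and 6.95 for 4C, 8.07, 7.68 and 7.89 for 4C11-, and 6.51, 6.12 and 6.65 for 4C11+. All 4C11+ libraries were below the others, the 4C libraries came next, and the ranges of melan-a and 4C11- overlapped. In 4C11+ it was 2.07-fold lower than in the other lines (log2 fold change -1.05 ± 0.17, adjusted p = 0.000751), 2.74-fold lower than in 4C11- (log2 fold change -1.45 ± 0.21, adjusted p = 0.000275) and 2.21-fold lower than in melan-a (log2 fold change -1.14 ± 0.23, adjusted p = 0.00707). Hdac2, its paralog in the same complexes, had line means of 7.38 ± 0.19 for melan-a, 6.52 ± 0.09 for 4C, 6.59 ± 0.54 for 4C11- and 7.07 ± 0.43 for 4C11+. It was not called in 4C11+ against the others (log2 fold change 0.24 ± 0.25, adjusted p = 0.485; -0.013 without replicate 3 of 4C11+) and was lower across the mesenchymal-like lines (log2 fold change -0.67 ± 0.22, adjusted p = 0.0399).

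Hdac3, the catalytic subunit of the NCoR complex, was at 7.79 and 7.21 for melan-a, 6.80, 6.52 and 6.40 for 4C, 7.0, 6.82 and 6.5 for 4C11-, and 6.35, 6.51 and 6.39 for 4C11+. Both melan-a libraries were above all libraries of the derived lines. It was 1.91-fold lower in 4C than in melan-a (log2 fold change -0.93 ± 0.25, adjusted p = 0.027) and 2.13-fold lower in 4C11+ (log2 fold change -1.09 ± 0.25, adjusted p = 0.0141). Its difference in 4C11+ against the other lines was smaller (log2 fold change -0.53 ± 0.19, adjusted p = 0.0452), and the groups overlapped.

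Hdac8, an X-linked class I enzyme that deacetylates the cohesin subunit SMC3, spans chrX:102284639-102505359 (GRCm38, minus strand). Its libraries were at 4.19 and 3.68 for melan-a, 4.47, 4.77 and 5.29 for 4C, 5.15, 4.47 and 4.30 for 4C11-, and 2.73, 2.52 and 3.42 for 4C11+. The 4C11+ libraries were the lowest, replicate 3 by the least. Hdac8 was 2.99-fold lower in 4C11+ than in the other lines (log2 fold change -1.58 ± 0.30, adjusted p = 0.00184) and 3.36-fold lower than in 4C11- (log2 fold change -1.75 ± 0.36, adjusted p = 0.00328), and 2.51-fold higher in the mesenchymal-like than in the epithelial lines (log2 fold change 1.33 ± 0.27, adjusted p = 0.00283).

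The upstream sequences of the class IIa genes are shown because members of this class differed in opposite directions in 4C11+ against the other lines. Each line holds the 250 bases before the outermost start given by RefSeq (GRCm38.p6), 5′ to 3′ on the strand of the gene, with CpG dinucleotides in capitals.
Hdac4, chr1:92180342-92180591, minus strand: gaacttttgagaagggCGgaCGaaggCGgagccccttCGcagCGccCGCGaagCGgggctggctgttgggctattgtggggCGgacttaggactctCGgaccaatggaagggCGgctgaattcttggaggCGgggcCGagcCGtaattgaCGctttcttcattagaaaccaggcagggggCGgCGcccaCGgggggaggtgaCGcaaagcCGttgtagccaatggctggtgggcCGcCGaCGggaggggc
Hdac5, chr11:102230173-102230422, minus strand: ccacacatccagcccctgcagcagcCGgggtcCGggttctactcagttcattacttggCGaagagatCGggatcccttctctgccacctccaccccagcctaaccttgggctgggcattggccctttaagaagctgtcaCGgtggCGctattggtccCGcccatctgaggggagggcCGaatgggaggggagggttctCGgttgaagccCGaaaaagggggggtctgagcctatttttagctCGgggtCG
Hdac7, chr15:97844503-97844752, minus strand: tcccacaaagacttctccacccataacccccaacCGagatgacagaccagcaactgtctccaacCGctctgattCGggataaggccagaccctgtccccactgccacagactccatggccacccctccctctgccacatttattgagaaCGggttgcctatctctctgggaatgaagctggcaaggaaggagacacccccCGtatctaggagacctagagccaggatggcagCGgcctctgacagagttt
Hdac9, chr12:34917096-34917345, minus strand: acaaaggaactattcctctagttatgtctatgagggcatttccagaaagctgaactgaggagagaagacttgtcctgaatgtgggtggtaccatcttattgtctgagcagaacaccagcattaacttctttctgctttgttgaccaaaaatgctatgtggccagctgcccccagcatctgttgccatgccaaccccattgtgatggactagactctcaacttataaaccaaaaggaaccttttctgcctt

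Upstream of Hdac4 there were 23 CpG, upstream of Hdac5 12, upstream of Hdac7 6 and upstream of Hdac9 0. Other starts of Hdac7 had 5, 21 and 25 CpG, and the other start of Hdac9 had 2. In the RefSeq table, 61 windows of 41 of the 50 genes were found, and their median was 20 CpG against 16 in 12737 windows of 9928 measured genes. Of the windows of the 50 genes, 3 (4.92%) held 3 CpG or fewer, against 10.6% of all windows. The E-box CACGTG was found on either strand in 4.92% of the windows of the 50 genes and 8.20% of all, TCATGTG in 1.64% and 1.81%, and TGANTCA in 4.92% and 4.39%, with no overlap between these motifs required or removed. None of the 4 windows shown held any of these letters, and the inner start of Hdac9 held TGANTCA. A match describes the letters only.

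Class IIa enzymes shuttle between nucleus and cytoplasm in response to phosphorylation. Hdac7 (chr15:97792664-97844502, minus strand) was at 7.13 and 5.06 for melan-a, 7.11, 7.14 and 7.01 for 4C, 7.19, 7.13 and 6.92 for 4C11-, and 4.62, 4.36 and 4.10 for 4C11+. Every 4C11+ library was below all others, the libraries of 4C and 4C11- lay close together, and the melan-a libraries were 2.07 apart. Hdac7 was 5.26-fold lower in 4C11+ than in the other lines (log2 fold change -2.39 ± 0.34, adjusted p = 0.000258), 6.6-fold lower than in 4C11- (log2 fold change -2.72 ± 0.41, adjusted p = 0.000393) and 3.33-fold lower than in melan-a (log2 fold change -1.73 ± 0.45, adjusted p = 0.0245). The last value was -0.70 without replicate 2 of melan-a (adjusted p = 0.181) and -2.77 without replicate 3, and the call was also lost without any one 4C11+ library. Hdac7 was 3.62-fold higher in the mesenchymal-like lines (log2 fold change 1.86 ± 0.31, adjusted p = 0.000688). The groups overlapped there, as replicate 2 of melan-a (7.13) lay among the mesenchymal libraries.

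Hdac5 and Hdac4, which restrain MEF2 target genes, were also lower in 4C11+, by less. Hdac5 was at 8.15 and 6.71 for melan-a, 7.32, 7.77 and 7.76 for 4C, 8.18, 8.05 and 6.88 for 4C11-, and 6.16, 6.12 and 6.58 for 4C11+, and all 4C11+ libraries were below the others. It was 2.46-fold lower in 4C11+ than in the other lines (log2 fold change -1.30 ± 0.33, adjusted p = 0.0107), and 2.67-fold lower than in 4C11- (log2 fold change -1.42 ± 0.40, adjusted p = 0.0186). Hdac4 had line means of 6.66 ± 0.41 for melan-a, 5.83 ± 0.27 for 4C, 6.19 ± 0.19 for 4C11- and 5.39 ± 0.24 for 4C11+. It was 1.79-fold lower in 4C11+ than in the other lines (log2 fold change -0.84 ± 0.21, adjusted p = 0.0087), with an overlap between 4C and 4C11+, and 2.41-fold lower than in melan-a (log2 fold change -1.27 ± 0.28, adjusted p = 0.0108).

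Hdac9, the remaining class IIa gene (chr12:34047580-34917095, minus strand), ran against the rest of its class. It was at 2.41 and 1.48 for melan-a, -3.44, -3.44 and -3.44 for 4C, -2.01, 0.24 and -2.01 for 4C11-, and 1.33, 1.58 and 2.37 for 4C11+, and these values stand for 20 and 15 reads (melan-a), 0 reads in each 4C library, 1, 9 and 3 reads (4C11-) and 9, 11 and 27 reads (4C11+). All epithelial libraries were above all mesenchymal ones. With each library at 3 reads or fewer set to the value of 3 reads there, Hdac9 was at least 9.24-fold lower in 4C than in melan-a and was 7.43-fold lower in the mesenchymal-like than in the epithelial lines, where 4C11- held reads. The limma test was run on the values without this floor. It gave differences of -5.39 (adjusted p = 0.00046) and -4.20 (adjusted p = 6.56e-05) for these comparisons. From 4C11- to 4C11+ it was higher by 3.02 ± 0.68 (adjusted p = 0.00582), where 2 of the 4C11- libraries held 3 reads or fewer. In 4C11+ against the other lines it was 3.49-fold higher with the same floor, although its melan-a libraries overlapped those of 4C11+. Without the floor, the limma test gave a difference of 2.67 ± 0.57 (adjusted p = 0.00375). The difference of 4C11+ from melan-a was not called (log2 fold change -0.19 ± 0.76, adjusted p = 0.89) and turned sign without replicate 2 of melan-a (0.28).

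Hdac11, the only class IV enzyme (chr6:91156665-91174692, plus strand), removes long fatty acyl groups as well as acetyl groups. It was at 2.85 and -2.58 for melan-a, 3.75, 3.89 and 4.22 for 4C, 5.00, 4.40 and 4.29 for 4C11-, and 3.69, 3.24 and 2.85 for 4C11+. The value in replicate 3 of melan-a stands for 0 reads and that in replicate 2 for 26 reads, and all mesenchymal libraries were above all epithelial ones. It was higher in the mesenchymal-like lines (log2 fold change 2.56 ± 0.74, adjusted p = 0.0211), and the difference was 1.20 ± 0.28 (adjusted p = 0.00845) without replicate 3 of melan-a and 3.92 without replicate 2. It was also higher in 4C than in melan-a (log2 fold change 3.82 ± 1.10, adjusted p = 0.0364). That call was lost in 8 of 11 omissions of a library, and the difference was 1.10 ± 0.45 (adjusted p = 0.146) without replicate 3 of melan-a and 6.54 without replicate 2.

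The class IIb enzymes act mostly in the cytoplasm, where HDAC6 deacetylates tubulin. Hdac6 was at 6.27 and 5.84 for melan-a, 6.20, 5.99 and 5.73 for 4C, 6.22, 5.71 and 5.70 for 4C11-, and 5.90, 6.01 and 5.48 for 4C11+. The libraries of all 4 lines overlapped, and none of the 6 differences was larger in size than that of 4C11+ from melan-a (log2 fold change -0.26 ± 0.28, adjusted p = 0.582). Hdac10, a polyamine deacetylase, was lower in 4C11+ than in 4C11- (log2 fold change -0.82 ± 0.28, adjusted p = 0.0428) and higher in the mesenchymal-like lines (log2 fold change 0.66 ± 0.21, adjusted p = 0.0318). Both Hdac10 calls were lost when single libraries were left out, with adjusted p up to 0.15 and 0.0877. They were also lost with the GC and length trends removed (differences of -0.51 and 0.42, adjusted p = 0.108 and 0.0796) and with both libraries that stand apart left out (adjusted p = 0.0869 and 0.0545).

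Of the deacetylase calls, those of Hdac7, Hdac8 and Hdac1 in 4C11+ against 4C11- and against the other lines held under every alternative run. Those of Hdac9 held too, but this gene was not in the run with low values left out. The call of Hdac1 against melan-a was lost without replicate 2 of melan-a (adjusted p = 0.0605). Those of Hdac4 and Hdac5 in 4C11+ against the other lines were lost without replicate 1 or without replicate 2 of 4C11+, with adjusted p up to 0.0589 and 0.0566. The call of Hdac3 in that comparison was lost in 7 of 11 omissions of a library, with adjusted p up to 0.165, and Hdac2 was lost in 8 of 11 between mesenchymal-like and epithelial lines, with adjusted p up to 0.116.

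Among the sirtuins, all calls in 4C11+ against the other 3 lines were upward. In that comparison, Sirt5, Sirt6 and Sirt7 were higher and none of the 7 was lower, with a median difference of 0.55. Of all genes, 18.3% were called higher there and 15.8% lower. Against melan-a, Sirt1 was higher and Sirt4 lower.

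Sirt1, the nuclear sirtuin that deacetylates histones, p53 and many transcription factors, was at 2.80 and 3.08 for melan-a, 4.85, 4.45 and 4.08 for 4C, 4.23, 4.78 and 5.07 for 4C11-, and 4.59, 4.68 and 4.48 for 4C11+. Both melan-a libraries were below all 9 others, and the derived lines overlapped. It was 2.87-fold higher in 4C (log2 fold change 1.52 ± 0.34, adjusted p = 0.00966) and 3.13-fold higher in 4C11+ (log2 fold change 1.65 ± 0.34, adjusted p = 0.0075) than in melan-a. Sirt2, mainly a cytoplasmic deacetylase of tubulin, was at 6.67 and 5.93 for melan-a, 5.03, 4.69 and 5.27 for 4C, 5.71, 4.92 and 4.89 for 4C11-, and 5.55, 5.73 and 5.49 for 4C11+. It was highest in melan-a and 2.48-fold lower in 4C (log2 fold change -1.31 ± 0.33, adjusted p = 0.0204).

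Of the mitochondrial sirtuins, Sirt5, a desuccinylase, was at 2.41 and 2.45 for melan-a, 1.78, 1.21 and 1.48 for 4C, 2.33, 1.97 and 0.96 for 4C11-, and 2.73, 2.96 and 3.20 for 4C11+. The 4C11+ libraries were above all others. It was 2.11-fold lower across the mesenchymal-like lines (log2 fold change -1.08 ± 0.31, adjusted p = 0.0202) and 2.11-fold higher in 4C11+ than in the other lines (log2 fold change 1.07 ± 0.34, adjusted p = 0.0301). Sirt4, which restrains glutamate dehydrogenase, was at 4.10 and 3.74 for melan-a, 2.13, 2.72 and 3.31 for 4C, 3.71, 3.09 and 2.67 for 4C11-, and 2.24, 2.09 and 2.78 for 4C11+, with both melan-a libraries above all others. It was 2.94-fold lower in 4C11+ than in melan-a (log2 fold change -1.56 ± 0.45, adjusted p = 0.0372). Sirt3, the main mitochondrial deacetylase, had line means between 2.71 and 3.14 and was called nowhere.

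Sirt6, a chromatin-bound enzyme that removes acetyl groups from lysine 9 of histone H3, was at 3.28 and 3.89 for melan-a, 3.82, 3.77 and 3.09 for 4C, 3.90, 3.76 and 3.60 for 4C11-, and 4.83, 4.53 and 4.06 for 4C11+. The 4C11+ libraries were above all others. It was 1.79-fold higher in 4C11+ than in the other lines (log2 fold change 0.84 ± 0.27, adjusted p = 0.032). Sirt7, a nucleolar sirtuin, was 1.76-fold higher (log2 fold change 0.81 ± 0.24, adjusted p = 0.0208), with a mean of 5.86 ± 0.40 in 4C11+ against 4.96 to 5.16 in the other lines. The calls of Sirt5, Sirt6 and Sirt7 in this comparison were lost without replicate 1 or without replicate 2 of 4C11+, with adjusted p up to 0.1, 0.182 and 0.123, and the calls of Sirt1 were lost without replicate 2 of melan-a, with adjusted p between 0.0517 and 0.0551. The call of Sirt4 was lost in 6 of 11 omissions of a library, with adjusted p up to 0.187.

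Among the 5 corepressor scaffolds, Rcor1, the CoREST scaffold that joins HDAC1 and HDAC2 to the demethylase KDM1A, was at 6.17 and 6.34 for melan-a, 5.68, 5.84 and 5.47 for 4C, 5.18, 5.60 and 5.81 for 4C11-, and 6.61, 6.31 and 6.89 for 4C11+. All epithelial libraries were above all mesenchymal ones. Rcor1 was 1.78-fold lower across the mesenchymal-like lines (log2 fold change -0.83 ± 0.18, adjusted p = 0.00448) and 1.72-fold higher in 4C11+ than in the other lines (log2 fold change 0.78 ± 0.20, adjusted p = 0.0106), so that it was higher where Hdac1 was lower. The latter call was lost without replicate 1 or replicate 3 of 4C11+, with adjusted p up to 0.0527.

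Ncor1, a scaffold of the HDAC3 complex, was not called and had replicate 1 of 4C11- at 6.17 against 8.10 and 8.28 in the other replicates. Sin3a and Sin3b, scaffolds of the SIN3 complex, were not called, with ranges of line means of 0.31 and 0.96.

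Readers of the BET family bind acetylated histones through paired bromodomains and recruit the transcription machinery. Brd3 was at 6.34 and 6.19 for melan-a, 6.35, 6.86 and 6.76 for 4C, 6.84, 6.91 and 7.0 for 4C11-, and 5.34, 5.39 and 6.20 for 4C11+. Of the 4C11+ libraries, 2 were below all others and replicate 3 lay between the melan-a libraries. Brd3 was 1.96-fold lower in 4C11+ than in the other lines (log2 fold change -0.97 ± 0.21, adjusted p = 0.00473), 2.42-fold lower than in 4C11- (log2 fold change -1.27 ± 0.26, adjusted p = 0.00302) and 1.78-fold higher in the mesenchymal-like lines (log2 fold change 0.83 ± 0.19, adjusted p = 0.00658). Brd2 had line means between 7.83 and 8.29 and was not called.

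Brd7, a subunit of the PBAF chromatin remodeler, was at 6.83 and 6.79 for melan-a, 5.88, 6.06 and 6.08 for 4C, 6.54, 6.61 and 6.84 for 4C11-, and 5.47, 5.46 and 5.78 for 4C11+. All 4C11+ libraries were below all others, and the 4C libraries were next. It was 1.9-fold lower in 4C11+ than in the other lines (log2 fold change -0.92 ± 0.16, adjusted p = 0.00126), 2.37-fold lower than in melan-a (log2 fold change -1.25 ± 0.22, adjusted p = 0.00332) and 1.75-fold lower in 4C than in melan-a (log2 fold change -0.81 ± 0.22, adjusted p = 0.0283). Brd8, a subunit of the NuA4/TIP60 acetyltransferase complex, was at 7.73 and 7.78 for melan-a, 7.19, 7.60 and 7.44 for 4C, 6.65, 7.27 and 7.51 for 4C11-, and 5.85, 6.0 and 6.27 for 4C11+. All 4C11+ libraries lay below the others. Brd8 was 2.64-fold lower in 4C11+ than in the other lines (log2 fold change -1.40 ± 0.20, adjusted p = 0.000322) and 3.29-fold lower than in melan-a (log2 fold change -1.72 ± 0.27, adjusted p = 0.00174). Brd9, of the ncBAF remodeler, and Brd1, of the HBO1 complex, were not called.

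The ING proteins carry PHD fingers that bind methylated lysine 4 of histone H3 and belong to acetyltransferase or deacetylase complexes. Ing3, the ING subunit of NuA4/TIP60, was at 4.75 and 5.30 for melan-a, 4.67, 4.21 and 3.82 for 4C, 3.48, 4.82 and 4.62 for 4C11-, and 5.93, 6.37 and 5.17 for 4C11+. In 4C11+, 2 libraries were above all others and replicate 3 lay below replicate 3 of melan-a. Ing3 was 2.46-fold higher in 4C11+ than in the other lines (log2 fold change 1.30 ± 0.35, adjusted p = 0.0134), 2.86-fold higher than in 4C11- (log2 fold change 1.52 ± 0.42, adjusted p = 0.0168) and 2.23-fold lower across the mesenchymal-like lines (log2 fold change -1.16 ± 0.31, adjusted p = 0.0156). The 4C11+ calls were lost without replicate 1 or replicate 2 of 4C11+, with adjusted p up to 0.0949 and 0.0802, and the last call without replicate 3 of melan-a, with adjusted p up to 0.0629. Thus Brd8 and Ing3, of the same complex, differed in direction in 4C11+. Ing1, Ing2, Ing4 and Ing5 were not called in any comparison.

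The calls of Brd3, Brd7 and Brd8 in 4C11+ against 4C11- and against the other lines held under every alternative run. Brd7 between 4C and melan-a was lost in 7 of 11 omissions of a library, with adjusted p up to 0.0952.

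**Figure D5:**
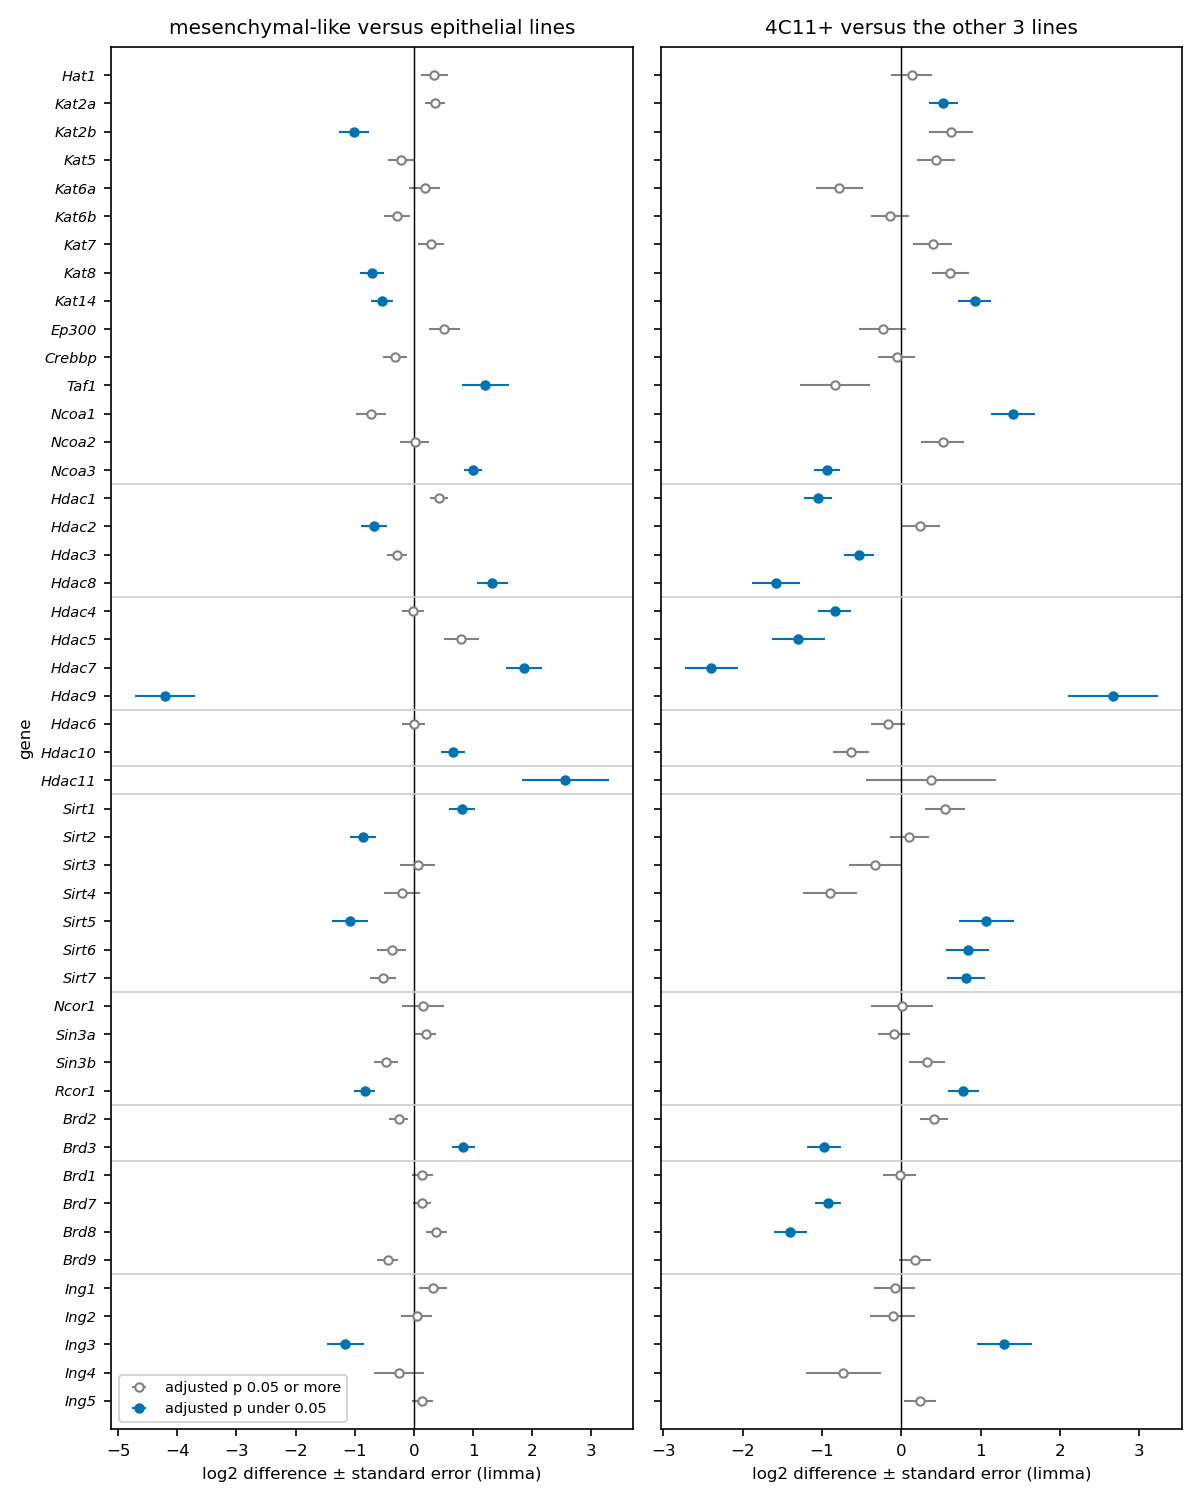
Log2 difference of 48 of the 50 genes (points) with its standard error (bars) from limma, between mesenchymal-like and epithelial lines (left) and between 4C11+ and the other 3 lines (right); filled points have an adjusted p under 0.05, and grey lines part the classes. On the right, Hdac1, Hdac3, Hdac4, Hdac5, Hdac7 and Hdac8 lie below 0 and Hdac9 above it at 2.67, a fitted value that rests on 4C libraries with 0 reads.

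Genes of the complexes around these enzymes were taken from 10 lists of partners, with 114 of 117 listed genes measured. Between mesenchymal-like and epithelial lines, 19 were higher and 11 lower, and in 4C11+ against the other lines 13 were higher and 18 lower. The background shares of both comparisons are given above. The medians were 0.08 and -0.09. The partner genes named here kept their calls, in the comparisons given, under every alternative run that held them. Several other called partners did not and are not named below. Among them, Rcor2 kept its call between mesenchymal-like and epithelial lines in 8 of 20 runs. Usp22 kept that in 4C11+ against the other lines in 10 of 20. The stability of the named genes thus does not stand for the lists. Acss1 was not in the run with low values left out.

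Partners of class I deacetylases included several genes that differed. Rbbp7, the histone-binding subunit shared by SIN3 and NuRD, was higher in the mesenchymal-like lines (log2 fold change 1.44 ± 0.13, adjusted p = 5.52e-06) and lower in 4C11+ than in the other lines (log2 fold change -1.21 ± 0.14, adjusted p = 7.35e-05). Of 12 SIN3 partners, 3 were higher in the former comparison (14.3% of all genes) and 2 lower in the latter (15.8% of all genes). In NuRD, Chd3, a helicase subunit, was higher in the mesenchymal-like lines (log2 fold change 1.62 ± 0.29, adjusted p = 0.00136), as was Mta3 (log2 fold change 1.01 ± 0.21, adjusted p = 0.00328), while Mbd2, the subunit that binds methylated DNA, was lower (log2 fold change -0.85 ± 0.16, adjusted p = 0.00149). Its paralog Mbd3 was higher in 4C11+ than in the other lines (log2 fold change 1.38 ± 0.22, adjusted p = 0.000664). In the CoREST list, Kdm1a, the demethylase that RCOR1 holds, was lower in 4C11+ (log2 fold change -0.92 ± 0.20, adjusted p = 0.00473).

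Of the acetyltransferase partners, Jade2, a scaffold of the HBO1 complex, was higher in 4C11+ (log2 fold change 2.64 ± 0.25, adjusted p = 1.34e-05). Ep400, the ATPase of NuA4/TIP60, was lower in 4C11+ (log2 fold change -1.30 ± 0.19, adjusted p = 0.000322), and Morf4l1, of the same complex, was higher (log2 fold change 0.90 ± 0.18, adjusted p = 0.00289). Yeats2, the acetyl-lysine reader of the ATAC complex, was lower (log2 fold change -1.65 ± 0.30, adjusted p = 0.00144). Msl3, of the KAT8 complex MSL, was higher in the mesenchymal-like lines (log2 fold change 1.33 ± 0.18, adjusted p = 0.000148), where Kat8 itself was lower.

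In the list of 23 measured readers with bromodomains or YEATS domains, Sp100, a nuclear body protein, had line means of -1.65 for melan-a, 3.15 for 4C, 4.28 for 4C11- and 0.91 for 4C11+ (adjusted p = 1.4e-05 between mesenchymal-like and epithelial lines). Smarca2, the BRM ATPase of the SWI/SNF remodeler, was lower in 4C11+ (log2 fold change -1.94 ± 0.22, adjusted p = 5.84e-05) and higher in the mesenchymal-like lines (log2 fold change 1.40 ± 0.20, adjusted p = 0.00025). Among 9 genes of acetyl-CoA supply, Acss1, the mitochondrial acetyl-CoA synthetase, had line means of 1.65 for melan-a, -2.96 for 4C, -0.68 for 4C11- and 2.64 for 4C11+ (adjusted p = 7.03e-05). The means of Sp100 in melan-a and of Acss1 in 4C lay below the value of 3 reads in those libraries. No floor was applied to either gene. Slc25a1, the mitochondrial citrate carrier that feeds cytosolic acetyl-CoA, was lower in 4C11+ (log2 fold change -1.48 ± 0.23, adjusted p = 0.00055), as was Pdk1, a kinase that inhibits pyruvate dehydrogenase (log2 fold change -1.41 ± 0.19, adjusted p = 0.000155).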

How the data were processed

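Per the labels and the methods of the study, the authors prepared total RNA libraries that keep strand information after ribosomal RNA depletion, trimmed reads with Trimmomatic, aligned them with STAR to GRCm38 (an Ensembl release), counted reads per gene with Rsubread, removed genes that did not reach 1 CPM in 4 or more libraries and transformed the counts with voom. The deposited values are log2 CPM of 14272 genes in 11 libraries. All libraries share 1 highest value (13.69) and their medians lie within 0.0106 of each other, as after quantile normalization, a step not named in the sources used here. Raw counts were not used here.

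Symbols came from a gene table (14248 genes matched, 24 did not), and gene positions, exon lengths and GC content from GENCODE M21 (GRCm38). Line means were fitted over the 11 libraries with limma 3.58.1 in R 4.3.3 (eBayes, variance trended on the mean level). P-values were adjusted by Benjamini-Hochberg over all 14272 genes. The script was tested on simulated data. The weights that voom attaches to single values were not available to the fit, which can change errors of low genes. Depth (about 3500000 to 7420000 reads) was estimated from the value of 40 reads, as if values were scaled to library size alone. If the values were quantile normalized, this estimate is uncertain. A gene at 3 reads or fewer was treated as at the floor, which covers counting error only. Tables and figures were made with Python 3.11.15, NumPy 2.4.6, pandas 2.3.3, SciPy 1.17.1 and Matplotlib 3.10.9.

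The genes, the lists and the tests were chosen with earlier results of these data known. Values in every library were given for genes that the study assayed by qPCR or named, and for up to 5 members per comparison with the largest called differences whose libraries did not overlap. Kat14, Ncoa3, Rcor1, Brd3 and Brd7 were added to these after their values were seen. Results for 2 of the 50 genes are not reported here, beyond their part in the counts. Partner genes were named from up to 3 per list and comparison, and those named are ones whose calls held under every alternative run. Alternatives were another normalization or centring, a filter on low values, other variance models, library weights, the replicate number as a block, a fit of the lines compared alone, and leaving out each library. Removing the GC and length trend of each library, and leaving out both libraries that stand apart, were chosen after seeing the data.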

Additional observations from a re-analysis of the deposited data

How the results depend on the processing

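Of the 73 calls of histone acetylation genes over the 6 comparisons, 31 were kept under every alternative that held the gene and 0 were reversed. The fewest calls were kept without replicate 1 (44) or replicate 2 (47) of 4C11+. Replicate 2 of melan-a (50 kept), of 4C (52) and of 4C11- (54) came next. Without replicate 3 of melan-a or of 4C11+, 63 and 62 were kept. The dependence thus lay on particular libraries of all 4 lines. The replicate numbers were not taken to pair the libraries, as the labels name no shared batch. Of 15 same-numbered pairs, 8 had a correlation of their deviations over 0.1 (median 0.147), against 11 of 30 different-numbered pairs (median -0.095). The pairs share libraries and deviations within a line offset each other, so these counts cannot decide whether a batch followed the numbers. With the replicate number as a block, 69 of the 73 calls were kept, all but Kat2a in 4C11+ against the other lines (adjusted p = 0.0608), Sirt4 against melan-a (0.0720) and Hdac10 and Sirt5 in 4C11+ against 4C11- (0.0539 and 0.0525), and 9, 1, 18, 9, 21 and 20 members were called in the order of the report. Depth limits Hdac9, and replicate 3 of melan-a limits Hdac11. Few reads also stand behind Sirt5, which lay below the value of 40 reads in every library of melan-a, 4C and 4C11-. Hdac8 and Sirt4 lay below that value in replicates 1 and 2 of 4C11+.

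The number of members called between 4C and melan-a (7) was 3 with the lines compared alone, 14 with GC and length trends removed and 11 with both libraries that stand apart left out. Between 4C11- and 4C (1 member, 238 genes), low-value filtering gave 125 genes, library weights 7 members and 2501 genes, the lines compared alone 0 members and 143 genes, GC and length removal 2 members and 466 genes, and leaving out both libraries 396 genes. Between 4C11+ and 4C11- (18 members, 4433 genes), library weights gave 35 members and 9238 genes. Between 4C11+ and melan-a (10 members, 2270 genes), the lines compared alone gave 1446 genes and leaving out both libraries 16 members and 3754 genes. In 4C11+ against the other lines (19 members, 4856 genes), library weights gave 33 members and 8720 genes. The cause of these changes was not tested, beyond the fewer libraries or genes in a fit.

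Leaving out each library in turn gave, for members and genes called, 2 to 11 and 1453 to 2663 between 4C and melan-a, 0 to 3 and 93 to 320 between 4C11- and 4C, 10 to 20 and 2986 to 4813 between 4C11+ and 4C11-, 3 to 13 and 1089 to 2864 between 4C11+ and melan-a, 11 to 19 and 3383 to 4854 between mesenchymal-like and epithelial lines, and 10 to 23 and 3001 to 5718 in 4C11+ against the other lines. Of the differences called in some setting or printed above, those that turned sign were not called with all libraries in the fit. Hdac7 between 4C and melan-a ran from -0.041 without replicate 3 (the same value without both libraries that stand apart) to 2.03 without replicate 2. Between 4C11+ and melan-a, Hat1 ran from -0.034 without replicate 2 to 1.13 without replicate 3. Hdac11 in 4C11+ against the other lines was -0.53 without replicate 3, 1.28 without replicate 2 and -0.46 without both libraries that stand apart. Ep300 in 4C11+ against melan-a was -0.51 without replicate 3 of melan-a (the same without both libraries that stand apart) and 0.84 without replicate 2. Hdac2 in 4C11+ against the other lines was -0.031 with library weights, -0.013 without replicate 3 of 4C11+ and 0.37 without replicate 1. Hdac9 in 4C11+ against melan-a was 0.0070 with the replicate block, 0.0089 with GC and length trends removed, 0.28 without replicate 2 of melan-a, -0.65 without replicate 3 and 0.026 without replicate 1 of 4C11+.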
